A study of Mus musculus with 60 samples.

Results

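CL6G52 is a subline of the mouse embryonal carcinoma line P19CL6, and it is described here through replicates 2 to 5 of CL6G52 against the 5 replicates of P19CL6. The arrays were taken by their titles, which gave 18 of the 60 arrays of the series, 8 of CL6G52 and 10 of P19CL6. Replicate 1 of CL6G52 was left out of the comparison because its profile lay with the subline CL6G45, so the choice used measured values, and leaving it out narrows the spread within CL6G52. Its values are given beside the results, and the counts that lead the comparisons are given with and without it.

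The series profiled 6 strains of undifferentiated embryonal carcinoma cells: CL6G52 and the other P19CL6 substrains CL6G26, CL6G36 and CL6G45, the line P19, and its substrain P19CL6, from which the 4 sublines come. All strains carry the labels strain C3H, male and embryo, and all were kept in alpha-minimum essential medium with fetal calf serum, and the labels name no differentiation stimulus. Each strain had 5 samples labelled as biological replicates, and each sample was hybridised to an Affymetrix MOE430A and an Affymetrix MOE430B array. CL6G52 is a single subline; the labels say neither what the sublines were isolated for nor whether the replicates were separate cultures, so the p-values reflect no more than the variation among these arrays, which may be technical.

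Embryonal carcinoma cells are the stem cells of teratocarcinomas and resemble the epiblast of the early embryo, and P19CL6 is known for forming beating heart muscle when treated with dimethyl sulfoxide. In the epiblast, Wnt, Nodal and FGF signals turn on the genes of the primitive streak, the structure from which mesoderm and endoderm arise. Wnt signalling acts through beta-catenin on TCF/LEF factors, and its targets include feedback genes such as Axin2 and Sp5.

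The arrays of MOE430A had median signals of 30.2 to 53.4 and those of MOE430B of 10.6 to 16.5, before quantile normalisation within each type. All values below are log2 of the normalised signal, on which a difference of 1 is a 2-fold change. The floor under which a signal was treated as not above background was 4.61 on MOE430A and 4.15 on MOE430B. The number of arrays limits the precision. The 3' to 5' signal ratio of Gapdh, a measure of RNA integrity, was 0.781 to 0.856 in CL6G52 and 0.835 to 0.887 in P19CL6 on MOE430A, where P19CL6 replicate 3 alone, at 0.835, lay within the CL6G52 range and the other 4 lay above it. On MOE430B it was 0.767 to 0.837 in CL6G52 and 0.856 to 0.878 in 4 of the P19CL6 arrays, and P19CL6 replicate 2 alone lay within the CL6G52 range. The part of this ratio in the results was not tested. P19CL6 replicates 1 and 2 stood apart from replicates 3 to 5 in many of the genes below, which is shown in their values. Replicate 2 of CL6G52 stood apart from replicates 3 to 5 on MOE430B, with a score of 58.8 on the fourth principal component where the highest of the other 3 was 23.7.

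The array of CL6G52 replicate 1 was checked against the mean profile of each strain, as the correlation over probe sets of its deviations from the mean of all 30 arrays. These correlations are descriptions of arrays that share probe sets and carry no test. On MOE430A, replicates 2 to 5 of CL6G52 correlated with the mean of the other CL6G52 arrays at 0.28 to 0.38. Replicate 1 correlated at -0.12 with that mean and at 0.32 with the CL6G45 mean. The same held in weaker form on MOE430B, where replicate 1 gave -0.04 with CL6G52 and 0.08 with CL6G45. On that type, replicate 2 of CL6G52 also had a correlation near 0 with the mean of replicates 3 to 5. Such values were not particular to it, since each P19CL6 array on MOE430B correlated with the mean of the other P19CL6 arrays at -0.005 to 0.021. The P19 arrays were split as well: on MOE430A, P19 replicates 4 and 5 correlated at 0.38 and 0.28 with the P19CL6 mean and at 0.11 and 0.07 with the mean of the other P19 arrays, while P19 replicates 1 to 3 correlated at 0.56 to 0.60 with the other P19 arrays and near 0 with P19CL6. Counts against P19 are therefore given with all 5 P19 arrays and with replicates 1 to 3 alone, a choice made after seeing the data. The P19 means and differences of single genes use all 5 P19 arrays. Without P19 replicates 4 and 5, 86 genes were called against P19CL6.

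**Figure D1:**
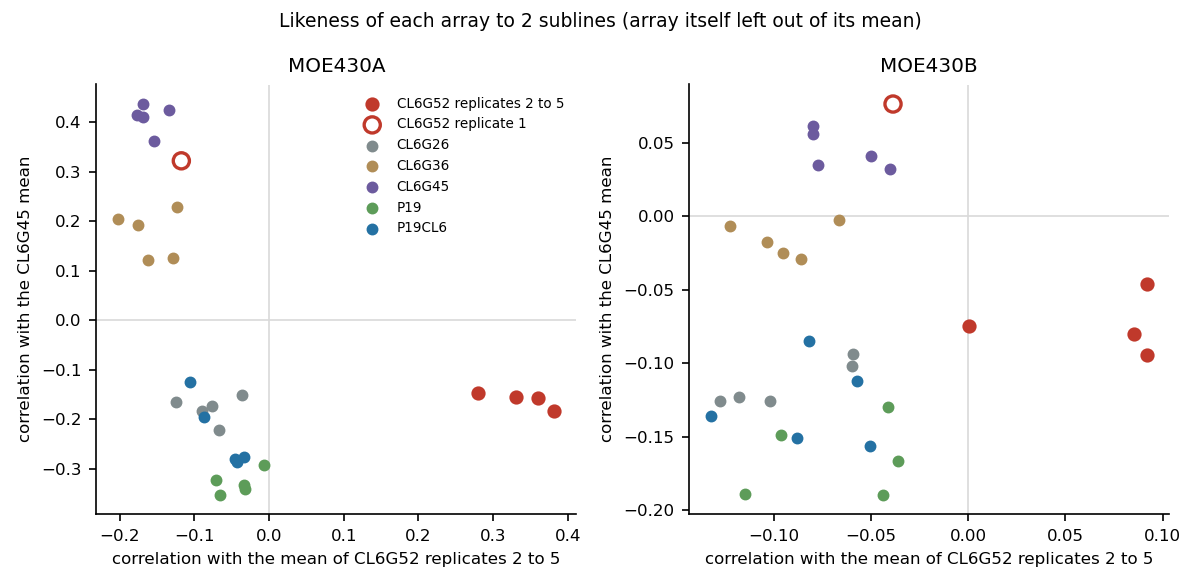
Likeness of each of the 30 arrays of a type to the mean of CL6G52 replicates 2 to 5 (x axis) and to the CL6G45 mean (y axis), as correlations of deviations from the mean of all arrays; an array is left out of its own mean. On MOE430A, CL6G52 replicates 2 to 5 lie to the right at 0.28 to 0.38, and CL6G52 replicate 1 (open circle) lies beside the CL6G45 arrays.

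Of 13436 genes tested, 74 were called, meaning an adjusted p under 0.05 in limma and at least a 2-fold difference, which is 0.551% of genes. CL6G52 was higher for 15 (0.112%) and lower for 59 (0.439%). The 4 CL6G52 and 5 P19CL6 arrays did not overlap for 64 of the 74 called genes, against 9.56% of all genes. The call was made on these same arrays and favours such genes, so this count is a description. By the adjusted p alone, 249 genes (1.85%) were higher in CL6G52 and 387 (2.88%) were lower. These are the shares to set beside each list count against P19CL6 below. With replicate 1 counted in CL6G52, 65 genes were called (0.484%), 14 higher and 51 lower, and 57 were called both ways. By the adjusted p alone, 1.34% of genes were then higher and 1.76% lower. Replicate 1 lay nearer the P19CL6 mean than the CL6G52 mean for 29 of the 74. The count of higher genes was 8 without CL6G52 replicate 3 and 9 without replicate 5, and the count by adjusted p alone was 404 without replicate 5. On the signals as deposited, without quantile normalisation, the median gene was 0.14 higher in CL6G52, and 46 genes were called, 23 higher and 23 lower.

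**Figure D2:**
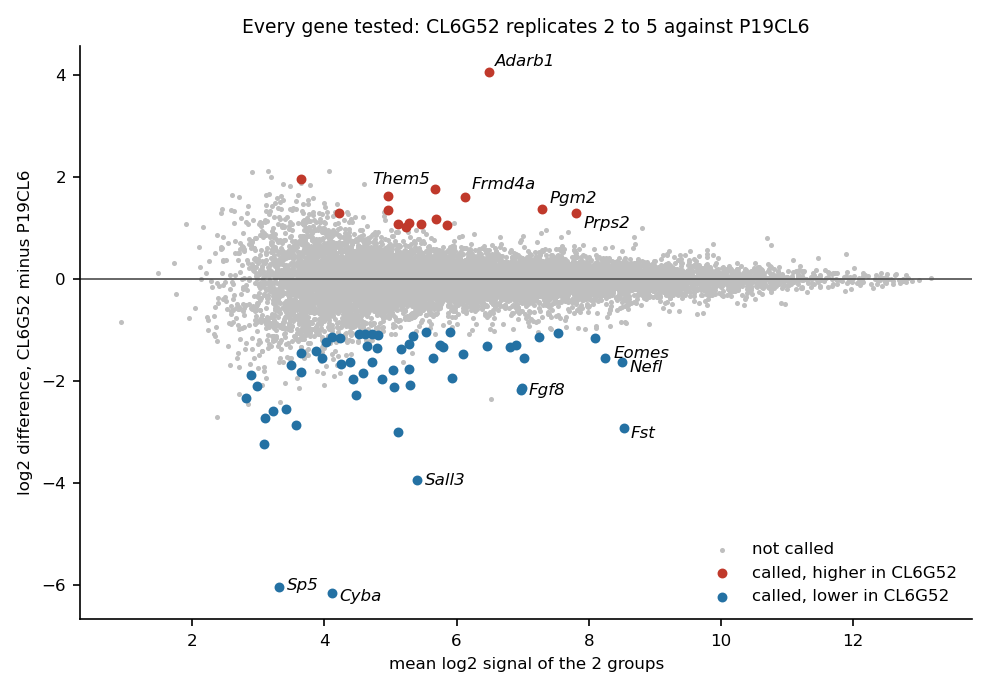
Log2 difference (CL6G52 replicates 2 to 5 minus P19CL6) against the mean log2 signal of both groups for the 13436 genes tested. Called genes are coloured, 15 higher and 59 lower in CL6G52; Adarb1 has the largest increase, and Sp5 and Cyba the largest fitted decreases, which rest on signals near 0 in CL6G52.

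Genes of the primitive streak were lower in CL6G52. Of 16 tested members of the list of streak and mesendoderm genes, 9 passed the adjusted p of 0.05 as lower, all 9 also by 2-fold, and none passed as higher, where 2.88% of all genes passed as lower. The median difference over the 16 was -1.51, against -0.01 over all genes. With signals raised to the floor, Gsc, Cdx2 and Lhx1 were lower by less than 2-fold, at -0.84, -0.62 and -0.14. The median of the list ranged from -1.71 to -0.383 over the alternatives. With replicate 1 counted, 8 passed as lower; without P19CL6 replicates 1 and 2, 8 passed; without CL6G52 replicate 3, 7 passed; and on the deposited scaling 5 passed. In bulk RNA, fewer cells of a type and less RNA per cell cannot be told apart. Brachyury was not analysed here.

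Eomes, a T-box factor needed for streak and endoderm formation, had 7.52, 7.70, 7.43 and 7.27 in CL6G52 replicates 2 to 5, against 8.82, 8.85, 9.16, 9.31 and 8.98 in P19CL6. All CL6G52 arrays lay below all P19CL6 arrays, and the difference was -1.54 ± 0.13 (SE; adjusted p = 2.61e-09, limma), a 2.91-fold lower signal. Its second probe set was also lower in every CL6G52 array.

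Mixl1, a homeobox gene of the streak, had 5.37, 5.57, 5.56 and 4.94 in CL6G52, against 6.41, 6.29, 7.33, 7.23 and 6.88 in P19CL6. The groups did not overlap, P19CL6 replicates 1 and 2 were the lowest of their group, and the difference was -1.47 ± 0.22 (SE; adjusted p = 7.65e-05, limma). Foxa2, a forkhead factor of anterior streak and endoderm, had 5.05, 4.74, 5.00 and 5.04 in CL6G52 and 6.79, 6.52, 7.10, 7.00 and 7.08 in P19CL6. Here too there was no overlap, with a difference of -1.94 ± 0.19 (SE; adjusted p = 3.77e-08, limma).

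The homeobox genes Nkx1-2, Evx1, Cdx2 and Lhx1 mark the posterior and anterior parts of the streak and its descendants. Nkx1-2 averaged 4.15 ± 0.24 in CL6G52 (SD, n = 4), under the floor on all 4 arrays, and 5.93 ± 0.35 in P19CL6 (SD, n = 5). It was therefore at least 2.49-fold lower in CL6G52 (adjusted p = 2.85e-06, limma). Such a bound sets the P19CL6 mean against the floor, since a signal under the floor is not well above background. Dimmer probe sets of Nkx1-2 overlapped between the groups. Aplnr, the apelin receptor of early mesoderm, was under the floor on all 4 CL6G52 arrays as well and was at least 2.34-fold lower (means 3.89 and 5.84 in CL6G52 and P19CL6; adjusted p = 0.0151), a call lost on the deposited scaling (adjusted p = 0.14). Its dimmer probe set overlapped between the groups.

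Evx1 had 2.85, 4.13, 4.92 and 5.13 in CL6G52, against 6.17, 5.80, 7.37, 5.97 and 6.33 in P19CL6. The groups did not overlap, but the adjusted p of 0.0387 in limma passed the threshold in only 11 of 22 alternatives, with a highest value of 0.212. Cdx2 was under the floor on all 4 CL6G52 arrays and above it on 3 of 5 P19CL6 arrays, with means of 2.14 ± 1.59 (SD, n = 4) and 5.00 ± 0.93 (SD, n = 5). Its adjusted p was 0.0132 in limma, but 0.0777 without CL6G52 replicate 3. Lhx1 was likewise under the floor on all 4 CL6G52 arrays and above it on 3 P19CL6 arrays, replicates 3 to 5. Its adjusted p was 0.00692, and 0.411 once signals were raised to the floor.

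The remaining 7 streak genes tested gave differences from -0.13 (Apela) to 0.72 (Pdgfra), and none passed. They include Mesp1, a factor of early heart mesoderm, at 4.83 in both groups, and Kdr, a receptor of vascular precursors, at 5.42 in CL6G52 and 5.49 in P19CL6.

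**Figure D3:**
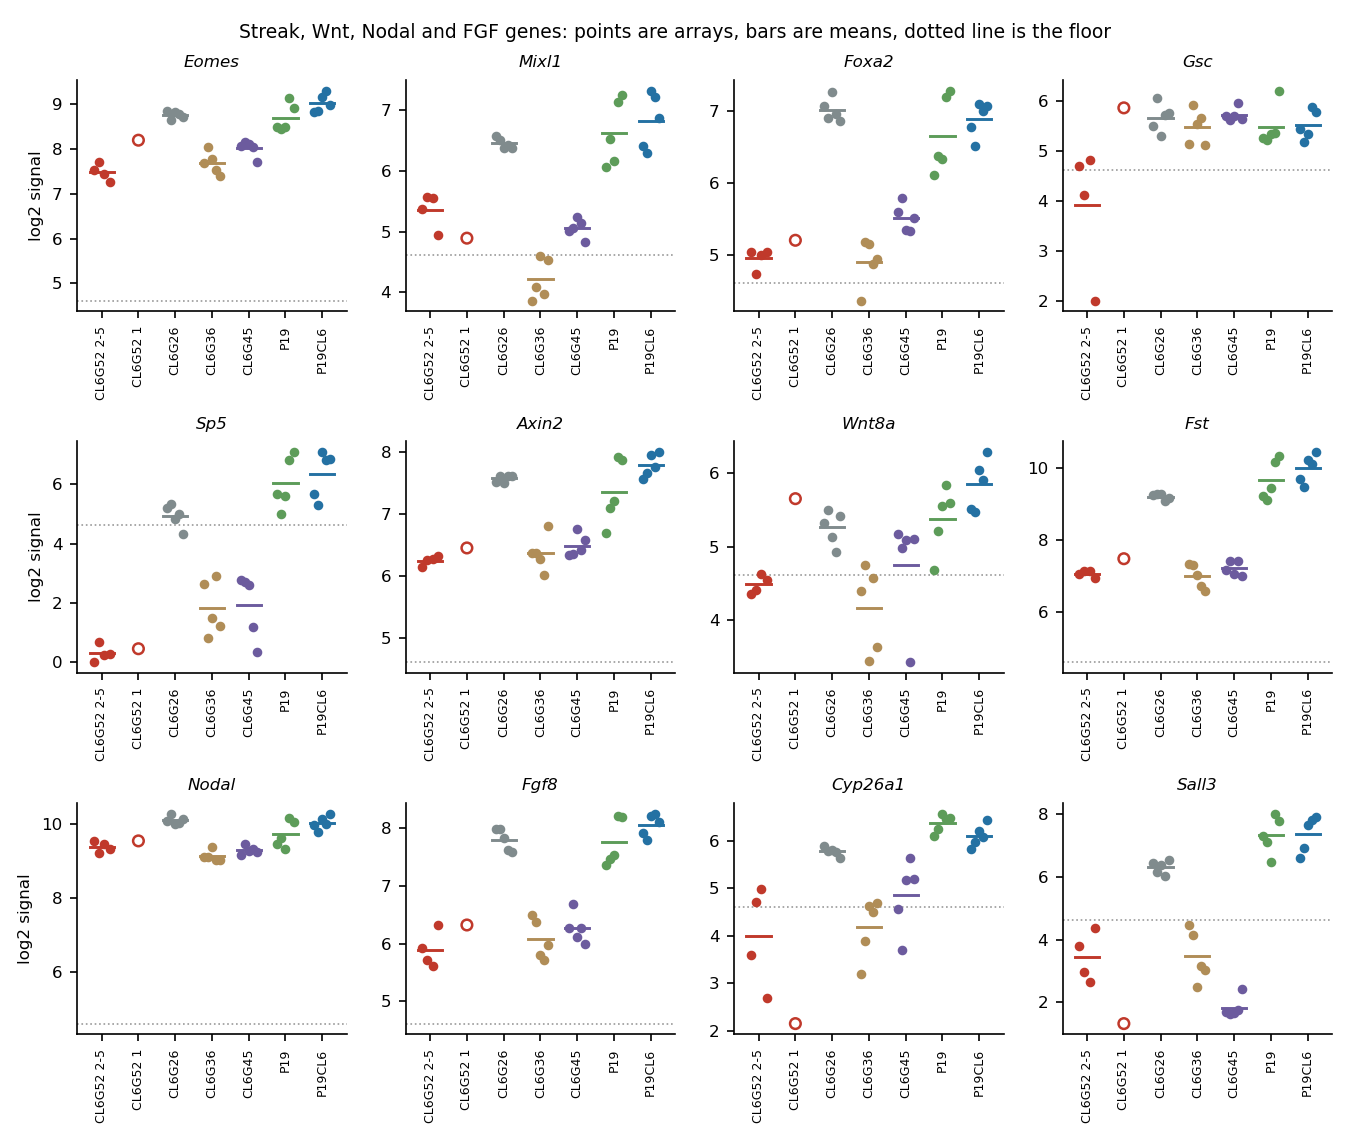
Log2 signal of 12 genes on every array: CL6G52 replicates 2 to 5, CL6G52 replicate 1 (open circle), CL6G26, CL6G36, CL6G45, P19 and P19CL6, with bars at group means and the floor as a dotted line. In all 12, each array of CL6G52 replicates 2 to 5 lies below each P19CL6 array, and for most of them CL6G36 and CL6G45 lie near CL6G52 while CL6G26 and P19 lie near P19CL6.

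Among Wnt ligands and targets, 6 of 20 tested genes passed as lower in CL6G52, 4 of them by 2-fold, and none passed as higher. Over all genes, 2.88% passed as lower and 0.439% were also lower by 2-fold. The median difference over the 20 was -0.28. With replicate 1 counted, 5 passed as lower, without CL6G52 replicate 5 it was 4, and on the deposited scaling it was 2.

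Sp5, a zinc-finger factor that Wnt signalling turns on directly, had 0.00, 0.68, 0.25 and 0.26 in CL6G52 replicates 2 to 5, against 5.66, 5.28, 7.07, 6.81 and 6.84 in P19CL6. Every CL6G52 array was at or near the lowest signal an array can give, and replicate 1 was there too, at 0.45. With CL6G52 at the floor instead, Sp5 was at least 3.29-fold lower (adjusted p = 5.34e-09, limma).

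Axin2, the feedback inhibitor of Wnt signalling, had 6.15, 6.25, 6.27 and 6.32 in CL6G52, against 7.56, 7.65, 7.95, 7.76 and 7.99 in P19CL6. The CL6G52 arrays were tightly grouped and all lower, by -1.54 ± 0.17 (SE; adjusted p = 3.92e-07, limma), a 2.90-fold lower signal. Replicate 1 had 6.45, close to the other CL6G52 arrays.

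The 250 bases before the start of both genes are shown because Sp5 and Axin2 are the Wnt targets with the lowest adjusted p. They come from RefSeq on GRCm38.p6, plus strand, chr2:70474673-70474922 for Sp5 and chr11:108920099-108920348 for Axin2. Capitals mark CTTTGA or CTTTGT, core letters of TCF/LEF sites, on either strand. The Sp5 stretch holds 4 matches that do not overlap each other, and the Axin2 stretch holds none of these letters. Of 32851 promoters of this length, 27.6% hold at least 1 match and 0.0944% hold at least 4. A match is a description and not a site or a cause.
Sp5: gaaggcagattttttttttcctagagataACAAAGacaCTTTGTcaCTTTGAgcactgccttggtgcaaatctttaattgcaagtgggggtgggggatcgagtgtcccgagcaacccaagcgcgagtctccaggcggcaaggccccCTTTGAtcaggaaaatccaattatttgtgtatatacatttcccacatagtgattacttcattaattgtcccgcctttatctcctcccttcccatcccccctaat
Axin2: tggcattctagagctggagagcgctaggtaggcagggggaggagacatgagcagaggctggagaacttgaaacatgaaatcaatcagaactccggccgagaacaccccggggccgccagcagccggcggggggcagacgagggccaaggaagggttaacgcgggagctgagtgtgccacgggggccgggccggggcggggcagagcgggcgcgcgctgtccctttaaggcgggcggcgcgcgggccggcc

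Of the ligands, Wnt8a, a Wnt of the streak, had 4.35, 4.41, 4.63 and 4.55 in CL6G52, against 5.52, 5.47, 6.04, 5.91 and 6.29 in P19CL6. The groups did not overlap (difference -1.36 ± 0.30, SE; adjusted p = 0.0055, limma), while replicate 1, at 5.65, lay within P19CL6. On the deposited scaling its adjusted p was 0.115. Wnt11, a further ligand, fell by 0.98 (adjusted p = 5.01e-05), and Lef1, a TCF/LEF factor, by 0.87 (adjusted p = 0.0456). Wnt5b, a non-canonical ligand, was under the floor on all 4 CL6G52 arrays and above it on 4 of 5 P19CL6 arrays. It passed with an adjusted p of 0.0186 in limma, but not without CL6G52 replicate 5 (adjusted p = 0.0956).

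Fst encodes follistatin, a secreted protein that binds activin, and is one of 4 genes chosen for CL6G52 from earlier results of these arrays, so its levels are given without a test. It had 7.05, 7.14, 7.14 and 6.95 in CL6G52 replicates 2 to 5, against 9.70, 9.46, 10.23, 10.10 and 10.44 in P19CL6. The level in CL6G52 was 7.57-fold lower, and replicate 1, at 7.48, lay with the other CL6G52 arrays. Its MOE430B probe set gave 6.64 to 7.12 in CL6G52, against 9.31 to 10.03 in P19CL6.

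In the list of Nodal and activin signalling, to which Fst belongs, 3 of the other 17 tested genes passed as lower and 1 as higher, and their median difference was 0.00. Over all genes, 2.88% passed as lower and 1.85% as higher. The counts of the alternatives include Fst, which was chosen from these arrays, so they are a description. Over all 18, Fst included, 4 passed as lower and 1 as higher. With replicate 1 it was 3 lower, Fst among them, and 1 higher. On the deposited scaling it was 1 lower, which was Fst, and no other gene of the list passed. Nodal itself, the ligand that patterns the epiblast, had 9.54, 9.22, 9.47 and 9.34 in CL6G52, against 10.00, 9.80, 10.15, 10.02 and 10.29 in P19CL6. It was lower on every CL6G52 array, by -0.66 ± 0.12 (SE; adjusted p = 0.00118, limma). Tdgf1, the Nodal co-receptor Cripto, fell by 0.62 (SE 0.10; adjusted p = 0.000299). Cer1, a secreted Nodal and Wnt antagonist, was under the floor on all CL6G52 arrays and on P19CL6 replicates 1 and 2. The groups overlapped, and its adjusted p of 0.0112 became 0.0548 with replicate 1 and 0.0638 without CL6G52 replicate 3.

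Fgf8, the FGF ligand of the streak, had 5.92, 5.72, 5.61 and 6.32 in CL6G52, against 7.91, 7.79, 8.21, 8.25 and 8.10 in P19CL6. The groups were far apart, with a 4.48-fold lower signal in CL6G52 (difference -2.16 ± 0.18, SE; adjusted p = 1.52e-09, limma). In the list of FGF and ERK feedback genes, 4 of 21 passed as lower and 1 as higher, with a median of -0.23. Over all genes, 2.88% passed as lower and 1.85% as higher. Without CL6G52 replicate 5, 2 of the list passed as lower, and on the deposited scaling 1 passed as lower and none as higher. Dusp6, a phosphatase induced by ERK that acts on ERK, averaged 8.49 ± 0.11 in CL6G52 (SD, n = 4) and 8.95 ± 0.10 in P19CL6 (SD, n = 5; adjusted p = 0.0118, but 0.0521 without CL6G52 replicate 5 and 0.577 on the deposited scaling). Etv5, an ETS factor downstream of FGF signalling, went the other way at 8.52 ± 0.08 and 8.11 ± 0.10 in CL6G52 and P19CL6 (adjusted p = 0.000412, but 0.332 on the deposited scaling).

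Several other lower genes are known from the gastrulating embryo or its derivatives. Cyp26a1, which degrades retinoic acid, had 3.60, 4.71, 4.99 and 2.69 in CL6G52, against 5.83, 5.99, 6.22, 6.08 and 6.45 in P19CL6, with an adjusted p of 0.000288 in limma. It was the only one of 11 tested genes of the retinoic acid list to pass. Sall3, a spalt zinc-finger factor, was under the floor on all 4 CL6G52 arrays and at 6.59, 6.91, 7.65, 7.80 and 7.91 in P19CL6, at least 6.77-fold lower (mean of 3.44 in CL6G52 and 7.37 in P19CL6; adjusted p = 9.68e-09). A second Sall3 probe set, on MOE430B, was near its floor and overlapped between the groups.

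Ifitm1, a membrane protein induced by interferon and also present in the mouse streak, had 6.03, 5.87, 5.86 and 5.96 in CL6G52, against 7.09, 7.30, 8.57, 8.48 and 8.84 in P19CL6. P19CL6 replicates 1 and 2 lay between CL6G52 and the other P19CL6 arrays (adjusted p = 6.44e-06, limma), and replicate 1 of CL6G52 was the lowest, at 4.76. None of the other 9 tested genes of the interferon-induced list passed, while 3 of the 10 passed as lower without P19CL6 replicates 1 and 2. The list is not complete, as Igtp and Irgm1, interferon-induced GTPases outside it, were also called lower without overlap. Irgm1 averaged 5.02 in CL6G52 and 6.05 in P19CL6 (adjusted p = 0.00923, limma). Igtp averaged 3.20 and 4.74 (adjusted p = 0.0151, limma), under the floor on all 4 CL6G52 arrays and above it on 3 of 5 P19CL6 arrays. Nefl, the light neurofilament chain, had 7.73, 7.66, 7.57 and 7.83 in CL6G52, against 9.30, 9.31, 9.24, 9.42 and 9.28 in P19CL6. This 3.06-fold lower signal had an adjusted p of 9.31e-13, and replicate 1, at 8.61, lay between the groups. Its MOE430B probe set gave a smaller difference, -0.63 (adjusted p = 0.000142). Epha1, an ephrin receptor, was lower as well, at 6.14 ± 0.16 in CL6G52 (SD, n = 4) and 7.47 ± 0.20 in P19CL6 (SD, n = 5; adjusted p = 2.48e-08).

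The keratins of simple epithelia and fibronectin were lower too. Krt8, a keratin, had 6.80, 6.74, 6.75 and 6.47 in CL6G52, against 7.41, 7.69, 8.26, 7.67 and 8.02 in P19CL6, with an adjusted p of 2.65e-06 in limma. Its partner Krt18 fell by 0.94 (adjusted p = 0.000849) and fibronectin (Fn1) by 0.91 (adjusted p = 0.000154). In the list of epithelial and mesenchymal genes, 4 of 17 passed as lower, where 2.88% of all genes did, and none as higher. The count was the same with replicate 1, and 2 passed on the deposited scaling. The median of this list was -0.43. Fn1 was the only one of 16 tested genes of the basement membrane and matrix list to pass, 8 of the 16 had a higher mean in CL6G52 and 8 a lower one, and their median was 0.00.

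The lower streak and Wnt genes were set against the other strains, in contrasts that share the CL6G52 arrays and so are not independent of each other. Against P19, 8 of the 9 streak genes called lower than P19CL6 were also lower in CL6G52 (5.59% of all genes were). Against P19 replicates 1 to 3 alone it was 8 of 9 as well, where 9.97% of all genes were lower and 10.4% higher. Against CL6G26 it was 7 of 9 (3.1% of all genes). None of the 9 was higher in either contrast, against 4.93% of all genes for P19 and 2.86% for CL6G26. Against CL6G36, 1 of the 9 was lower in CL6G52 and 2 were higher, where 9.61% of all genes were lower and 7.7% higher. Against CL6G45, 3 were lower and none was higher, where 8.55% of all genes were lower and 7.35% higher. The 9 were chosen on the CL6G52 arrays, so these counts are a description. Of the 20 Wnt genes, 7 passed as lower in CL6G52 against P19 and none as higher. Against P19 replicates 1 to 3 alone, 6 passed as lower and 1 as higher. Against CL6G26 it was 4 lower and 1 higher, against CL6G36 1 lower and none higher, and against CL6G45 2 lower and 2 higher. Sp5 passed as lower against CL6G36 and CL6G45 (adjusted p = 0.0447 and 0.0329, limma), with its mean under the floor in CL6G52, CL6G36 and CL6G45. Fst averaged 7.07 in CL6G52, 6.99 in CL6G36 and 7.21 in CL6G45, and 9.21 in CL6G26, 9.66 in P19 and 9.99 in P19CL6. Fgf8 averaged 5.89 in CL6G52, 6.07 in CL6G36, 6.27 in CL6G45, 7.75 in P19, 7.80 in CL6G26 and 8.05 in P19CL6. Fgf8 in CL6G52 did not pass the test against CL6G36 (adjusted p = 0.535, limma) or CL6G45 (adjusted p = 0.156).

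Goosecoid (Gsc), a homeobox gene of the anterior streak, was an exception among the streak genes. It had 4.70, 4.12, 4.82 and 2.00 in CL6G52 replicates 2 to 5, against 5.45, 5.18, 5.34, 5.88 and 5.77 in P19CL6, and averaged 5.48 to 5.72 in the other 4 strains. All 4 CL6G52 arrays lay below all 25 arrays of the other 5 strains, 2 of them under the floor. The difference was -1.61 ± 0.34 from P19CL6 (SE; adjusted p = 0.00356, limma) and -1.57 from CL6G36, the nearest strain (adjusted p = 0.00094). Replicate 1 had 5.86, in the range of the other strains, and with it counted the adjusted p against P19CL6 was 0.0557. It was 0.0554 when the fit held the CL6G52 and P19CL6 arrays alone.

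**Figure D4:**
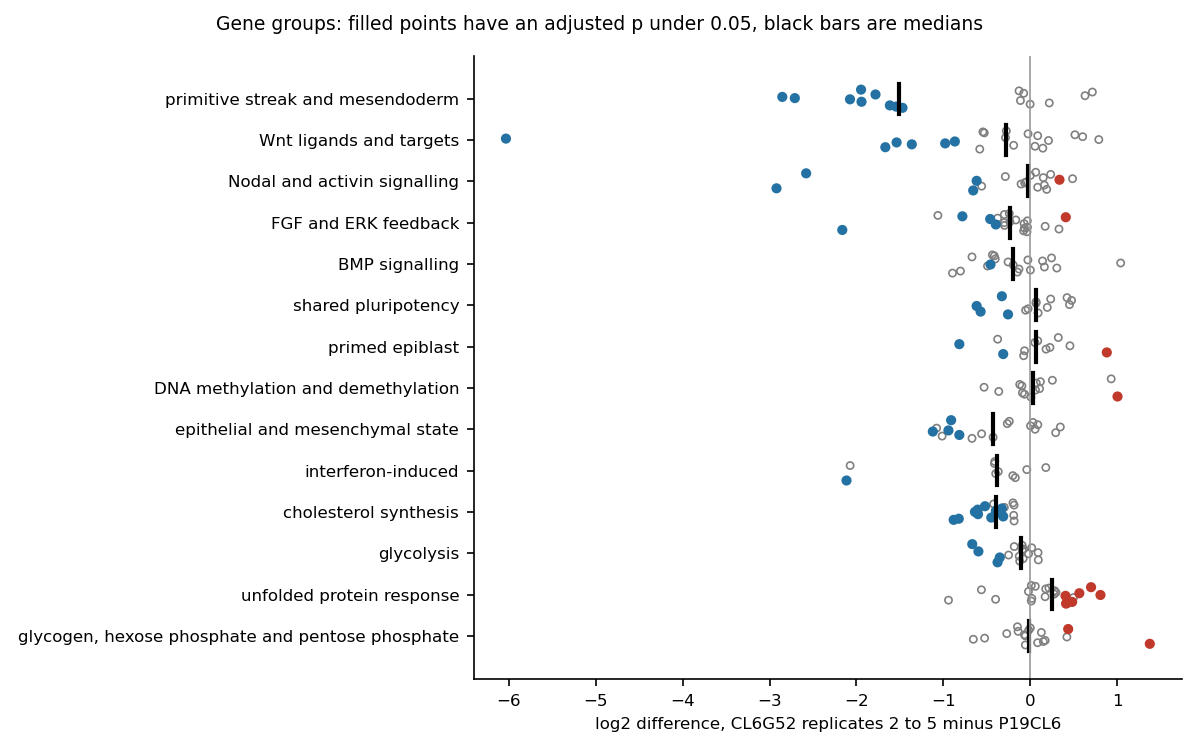
Log2 difference (CL6G52 replicates 2 to 5 minus P19CL6) of every tested gene in 14 lists, with filled points at an adjusted p under 0.05 and black bars at list medians. The streak list stands furthest to the left with a median of -1.51, which rests in part on signals under the floor. The 17 cholesterol synthesis genes all lie below 0, and 7 unfolded protein response genes are filled to the right.

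The 4 CL6G52 arrays lay apart from all 25 arrays of the other 5 strains for 87 of 13436 genes (0.648%). Of these, 8 (0.0595%) were also called against the nearest strain, Gsc and 7 others, 4 higher (0.0298%) and 4 lower (0.0298%) in CL6G52. Frmd4a, 1 of the 8, was chosen for CL6G52 from these arrays, so its place there is a description and not a test. Without P19 replicates 4 and 5, 6 genes met the criteria, 5 of the 8 (Adarb1, Cyba, Frmd4a, Gsc and Prps2) and Esrp1, a splicing regulator of epithelia, while Ephx2, Tenm2 and 2610307P16Rik did not. One of the lower ones is an unnamed clone, 2610307P16Rik. Replicate 1 lay nearer the CL6G45 mean than the CL6G52 mean for all 8, and none met the criteria with replicate 1 counted.

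Adarb1, the RNA-editing enzyme ADAR2 that turns adenosine into inosine, had 8.89, 8.29, 8.58 and 8.33 in CL6G52, against 4.73, 3.83, 4.45, 4.61 and 4.63 in P19CL6. P19CL6 lay around the floor, as did the 4 other strains with means of 4.27 to 4.59. The difference was 4.08 ± 0.20 (SE; adjusted p = 1.55e-14, limma), a 16.9-fold higher signal, and replicate 1, at 4.75, lay with the other strains.

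A separate Adarb1 probe set on MOE430B gave 7.40 to 7.74 in CL6G52 and 1.58 to 2.02 in P19CL6, while a further one on MOE430A stayed below the floor on all 9 arrays. Its nearest tested neighbours in RefSeq gene order (GRCm38.p6), Pofut2 and Fam207a, gave -0.25 and -0.14, and neither passed.

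Prps2, which makes the ribose phosphate precursor of nucleotides, had 8.44, 8.47, 8.38 and 8.54 in CL6G52, against 7.12, 6.97, 7.28, 7.07 and 7.34 in P19CL6. The groups were far apart (adjusted p = 6.9e-09, limma), by 1.30 ± 0.12 (SE) on the brightest probe set, and its other probe sets were also higher. Replicate 1, at 7.05, lay in the P19CL6 range. The nearest tested neighbours of Prps2 on either side, Tlr7 and Msl3, did not pass. Of the next ones out, Tmsb4x was higher by 0.69 (adjusted p = 0.0147, limma) and Amelx did not pass.

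Pgm2, a mutase of sugar phosphates, and Frmd4a, a FERM-domain scaffold of epithelial polarity, were chosen for CL6G52 in the same way as Fst, and are given without a test. Pgm2 had 8.13, 8.04, 8.02 and 7.72 in CL6G52, against 6.75, 6.34, 6.62, 6.71 and 6.59 in P19CL6, and 7.07 in replicate 1. Frmd4a had 6.69, 7.03, 7.02 and 6.99 in CL6G52, against 5.50, 5.50, 5.06, 4.96 and 5.56 in P19CL6, and 5.57 in replicate 1. Both were higher on every CL6G52 array, by 2.60-fold and 3.06-fold. In the list of sugar phosphate genes, which holds Pgm2, 1 of the other 16 tested genes passed, Prps1, the paralog of Prps2, higher at 9.51 ± 0.31 in CL6G52 (SD, n = 4) and 9.07 ± 0.10 in P19CL6 (SD, n = 5; adjusted p = 0.0203, but 0.127 without CL6G52 replicate 2, 0.0525 without CL6G52 replicate 3 and 0.0552 without P19CL6 replicate 1).

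Tenm2, an adhesion receptor of developing neurons, had 5.14, 5.49, 5.72 and 5.75 in CL6G52, against 4.48, 2.49, 3.51, 4.34 and 3.50 in P19CL6. It did not pass against P19CL6 (adjusted p = 0.0833, limma), where 3 arrays were under the floor, but met the criteria against CL6G36, the nearest strain, by 1.85 (adjusted p = 0.0358). Them5, an acyl-CoA thioesterase, had the largest increase of the genes above the floor on every array, at 6.55, 6.58, 6.37 and 6.76 in CL6G52 against 4.72, 4.68, 5.02, 4.73 and 4.80 in P19CL6. Its adjusted p of 0.034 was lost in 15 of 22 alternatives, among them each one that leaves out 1 array, and was 0.209 with replicate 1, whose value was 4.42.

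Cyba, which encodes the p22phox subunit of the NADPH oxidases, had 0.47, 2.78, 0.54 and 0.36 in CL6G52, against 7.56, 7.24, 7.03, 7.18 and 6.92 in P19CL6. All CL6G52 arrays were far under the floor, so Cyba was at least 5.95-fold lower (adjusted p = 1.55e-10, limma). Replicate 1, at 7.38, lay in the P19CL6 range, as did CL6G45 with a mean of 7.08. CL6G36 and P19 averaged 5.24 and 5.38. CL6G26, the nearest strain, averaged 4.43, itself under the floor of 4.61. Its neighbour Mvd, an enzyme of cholesterol synthesis, was lower by -0.45 (adjusted p = 0.0138), and the neighbour on its other side, Zc3h18, did not pass. Ephx2, the soluble epoxide hydrolase, had 5.31, 5.20, 5.20 and 4.82 in CL6G52, against 6.22, 6.39, 6.39, 6.64 and 6.67 in P19CL6 (difference -1.33 ± 0.15, SE; adjusted p = 7.79e-07). Its replicate 1 value of 6.46 was that of P19CL6.

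**Figure D5:**
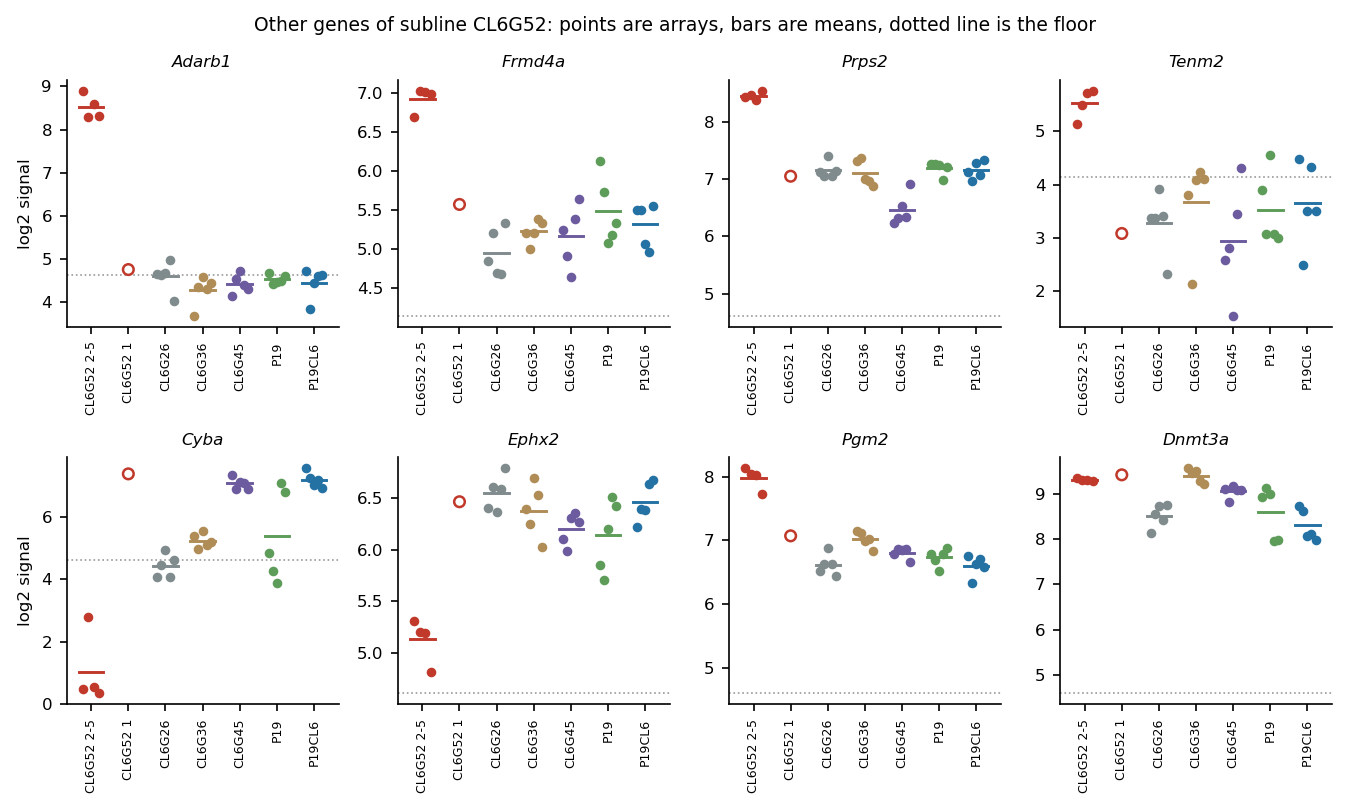
Log2 signal of 8 genes on every array, with CL6G52 replicates 2 to 5 at the left, CL6G52 replicate 1 as an open circle, then CL6G26, CL6G36, CL6G45, P19 and P19CL6; bars are means and the dotted line is the floor. For Adarb1, Frmd4a, Prps2, Tenm2, Cyba, Ephx2 and Pgm2 the arrays of CL6G52 replicates 2 to 5 lie apart from all arrays of the 5 other strains, and for Dnmt3a they lie with CL6G36 and CL6G45.

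Dnmt3a, a de novo DNA methyltransferase, is the last of the 4 genes so chosen. It had 9.34, 9.29, 9.29 and 9.27 in CL6G52, against 8.72, 8.61, 8.07, 8.11 and 7.98 in P19CL6, a 2.00-fold higher signal, and 9.41 in replicate 1. P19CL6 replicates 1 and 2 were the highest of their group, and the means of CL6G36 and CL6G45 were 9.39 and 9.05. Of its other 4 probe sets, 3 were also higher on every CL6G52 array, and 1 overlapped. None of the other 13 tested genes of DNA methylation and demethylation passed; Dnmt3b was at 10.72 in CL6G52 and 10.79 in P19CL6, and Dnmt1 at 9.61 and 9.60.

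The core pluripotency factors were all well above the floor. Pou5f1 (Oct4) had 11.18, 11.24, 11.13 and 11.15 in CL6G52, against 11.41, 11.39, 11.53, 11.39 and 11.44 in P19CL6. This small step of -0.25 ± 0.05 (SE) did not overlap and passed (adjusted p = 0.00362, limma), but not with replicate 1, at 11.48 (adjusted p = 0.0593). Sox2 did not pass, at 8.72 ± 0.15 in CL6G52 (SD, n = 4) and 8.63 ± 0.24 in P19CL6 (SD, n = 5). Nanog was lower on every CL6G52 array, at 8.19 ± 0.09 (SD, n = 4) in CL6G52 and 8.76 ± 0.12 (SD, n = 5) in P19CL6 (adjusted p = 0.00209). In all, 4 of 14 shared pluripotency genes passed as lower, where 2.88% of all genes did, and none as higher, with a median of 0.07. With replicate 1, 2 passed as lower and 1 as higher, and none passed on the deposited scaling.

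Genes of cholesterol synthesis were lower in CL6G52 by small steps. All 17 tested had a lower mean, against 6935 of 13436 over all genes. Of the 17, 11 passed as lower, where 2.88% of all genes did, none passed as higher, and the median was -0.39. Mvk and Pmvk, the mevalonate and phosphomevalonate kinases, fell by 0.88 and 0.82 (adjusted p = 2.99e-05 and 5.92e-05, limma). Mvk had 6.19, 6.52, 5.91 and 6.44 in CL6G52, against 7.10, 7.19, 7.09, 7.12 and 7.23 in P19CL6, with no overlap. Against the other strains, 11 passed as lower in CL6G52 against CL6G26, 10 against CL6G36, 13 against CL6G45 and 4 against P19, of 17, where 3.1%, 9.61%, 8.55% and 5.59% of all genes did. Against P19 replicates 1 to 3 alone, 2 passed as lower (11.8%) and 1 as higher (5.88%), where 9.97% and 10.4% of all genes did. In that contrast the share of lower genes in the list was near that of all genes, and the list median was -0.081. Replicate 1 of CL6G52 had 7.36 for Mvk, above all P19CL6 arrays, and with it counted 5 of 17 passed; without P19CL6 replicates 1 and 2 it was 8, and on the deposited scaling none passed although the median stayed at -0.30.

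In the unfolded protein response, 7 of 22 genes passed as higher, where 1.85% of all genes did, and none as lower, with a median of 0.25. Pdia3, a disulfide isomerase of the endoplasmic reticulum, had 11.12, 11.19, 11.07 and 11.03 in CL6G52, against 10.22, 10.20, 10.38, 10.31 and 10.35 in P19CL6. It was higher on all CL6G52 arrays by 0.81 ± 0.07 (SE; adjusted p = 5.98e-10, limma), and replicate 1 was at 10.36, in the P19CL6 range. Manf, a secreted stress-induced factor, was higher by 0.70 (adjusted p = 0.000151). With replicate 1, 8 passed, with each array scaled to 1 median 4 passed, and on the deposited scaling 2. Against CL6G36 and CL6G45 the direction was the other one, with 18 and 16 of the 22 passing as lower in CL6G52, where 9.61% and 8.55% of all genes did. Against CL6G26, 1 passed as higher and 2 as lower, where 2.86% and 3.1% of all genes did. Against P19, 9 passed as higher and none as lower, where 4.93% and 5.59% of all genes did. Against P19 replicates 1 to 3 alone, 6 passed as higher and 3 as lower, where 10.4% and 9.97% of all genes did.

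Glycolysis genes passed as lower for 4 of 16, where 2.88% of all genes did, with a median of -0.11. Among the 4 were Pdk1 and Slc2a1, the pyruvate dehydrogenase kinase and a glucose transporter. None passed with replicate 1 or without P19CL6 replicates 1 and 2, 1 passed without CL6G52 replicate 3, CL6G52 replicate 5 or P19CL6 replicate 3, and 2 passed without CL6G52 replicate 2, CL6G52 replicate 4 or P19CL6 replicate 2. With each array scaled to 1 median, 8 passed as lower. Other lists had few passing genes. Among imprinted genes, Peg3, a paternally expressed zinc-finger gene, fell by 0.68 on its brightest probe set (adjusted p = 5.92e-05, limma), while dimmer probe sets overlapped between the groups. Plagl1 was called higher at a low signal (adjusted p = 0.0288), a call lost without any 1 of the 4 CL6G52 arrays or P19CL6 replicate 3 (highest adjusted p of these 0.0965), and its MOE430B probe set overlapped between the groups. Where 2.88% of all genes passed as lower and 1.85% as higher, 4 of 19 lysosomal genes passed as lower and 1 as higher. They include Ctsc, a lysosomal protease, which averaged 4.40 ± 0.60 in CL6G52 (SD, n = 4) and 6.15 ± 0.17 in P19CL6 (SD, n = 5; adjusted p = 0.0155, and 0.0607 without CL6G52 replicate 2). With replicate 1, 2 lysosomal genes passed as lower. Amot, an angiomotin of the Hippo pathway, fell by 0.86 on its brightest probe set (adjusted p = 2.08e-05, limma), but its other probe sets overlapped. The mean over the tested Amot probe sets, the brightest included, did not pass (adjusted p = 0.168, limma).

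Of the cardiac transcription factors, hypoxia, cell cycle, p53, heat shock, oxidative phosphorylation and naive pluripotency lists, no gene passed in either direction.

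Markers of other cell types were measured in the same arrays. The summed signal of the extraembryonic endoderm markers on MOE430A was 1493 to 1656 in CL6G52 and 1123 to 1362 in P19CL6, while Afp, Apoa1, Cubn, Foxa1, Sox7 and Ttr, 6 of the 12, were under the floor on all 9 arrays. Replicate 1 had a sum of 1151 there, in the P19CL6 range. On MOE430B the sums of 4 of these markers overlapped, at 44.3 to 90.7 in CL6G52 and 53.3 to 75.1 in P19CL6. One of the 6 tested markers passed, Dab2, an endocytic adaptor, at 6.22 ± 0.13 in CL6G52 (SD, n = 4) and 5.59 ± 0.26 in P19CL6 (SD, n = 5; adjusted p = 0.00859, and 0.0793 with replicate 1). Neural precursor markers on MOE430A summed to 1571 to 1640 in CL6G52 and 1336 to 1463 in P19CL6, and 1 of 11 tested passed, Stmn2. Trophoblast sums on MOE430A were 124.8 to 175.2 in CL6G52 and 127 to 184.2 in P19CL6. Fibroblast sums on MOE430A were 127.2 to 146.3 in CL6G52 and 92.4 to 171.9 in P19CL6, and no gene of these lists passed. The part of these differences in the lower streak genes was not tested.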

How the data were processed

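Affymetrix GCOS signals were deposited by the authors as 1 value table per array type, MOE430A and MOE430B, and hold linear intensity values, 1 per probe set and array; the software is named per the submitters' processing notes, and its version and scaling target are not given in the sources used here. Groups came from the sample titles. Within each type, signals were quantile normalised over 30 arrays, values under 1 set to 1, and log2 taken. A gene was read from its brightest probe set with 1 gene symbol, by GEO's platform annotation, on MOE430A before MOE430B; 691 and 245 probe sets with several symbols were not named. The floor was the 40th percentile of signals on MOE430A and the 60th on MOE430B, and a probe set was tested if above it on 4 arrays, which left 15323 and 12709 probe sets.

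limma 3.58.1 (R 4.3.3) fitted 1 mean per strain, with CL6G52 replicate 1 as a term of its own (23 residual degrees of freedom). Tests were two-sided, with Benjamini-Hochberg adjustment over the probe sets of a type. The fit was tested on simulated data. Named genes are the largest non-overlapping calls in each direction, genes particular to CL6G52 and the strongest members of the lists. Wnt11, Lef1, Igtp, Irgm1, neighbours and non-passing examples were added after their values were seen. The members, genes and 36 lists were chosen with earlier results of these data known. The 22 alternatives varied scaling, filter, probe set, fit and arrays, and leaving out P19 replicates 4 and 5 was added after seeing the data.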

Additional observations from a re-analysis of the deposited data

Results flagged for a closer look

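Single arrays stood far from the rest of their group for some of the 79 named genes, by the gap to the nearest array as a share of the group's range; chance alone gives about 1 in 20 groups, and 237 groups were tested. Among all 5 CL6G52 arrays this was replicate 1 in each of the 16 cases, which the choice of genes fixes, since replicate 1 was left out on its profile and the genes were named on replicates 2 to 5. Replicate 1 was the lower one for Them5 at 4.42 (the other 4 arrays 6.37 to 6.76), Frmd4a at 5.57 (6.69 to 7.03), Prps2 at 7.05 (8.38 to 8.54), Ifitm1 at 4.76 (5.86 to 6.03), Adarb1 at 4.75 (8.29 to 8.89), Tenm2 at 3.08 (lowest of the others 5.14) and Pdia3 at 10.36 (11.03 to 11.19). It was the higher one for Nefl at 8.61, Tdgf1 at 9.42, Otx2 at 9.55, Wnt8a at 5.65, Xbp1 at 10.47, Aldoc at 9.09, Pfkl at 11.03, Lss at 8.62 and Msmo1 at 8.85. Among replicates 2 to 5, replicate 3 stood apart for Foxa2 at 4.74, Cyba at 2.78 and Aplnr at 3.60, and replicate 2 for Frmd4a at 6.69 and Amot at 8.06. In P19CL6, replicate 4 stood apart for Pmvk at 7.91 and replicate 3 for Plagl1 at 2.93.

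Beyond P19CL6, 7 named genes lay apart in CL6G52 replicates 2 to 5 from all 25 arrays of the 5 other strains and differed from the strain with the nearest mean by at least 2-fold with an adjusted p under 0.05 in limma. Frmd4a is among them as a description, since it was chosen for CL6G52 from these arrays. Tenm2 and Ephx2 no longer met these criteria without P19 replicates 4 and 5. The difference was 3.93 for Adarb1 against CL6G26, 1.85 for Tenm2 against CL6G36, 1.44 for Frmd4a against P19 and 1.26 for Prps2 against P19. It was -3.39 for Cyba against CL6G26, -1.57 for Gsc against CL6G36 and -1.01 for Ephx2 against P19. The CL6G26 mean of Cyba, 4.43, was itself under the floor of 4.61, so that difference lies between mean signals under the floor.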

How the results depend on the processing

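With CL6G52 replicate 1 counted, 416 genes had an adjusted p under 0.05 in place of 636, and 0 genes were particular to CL6G52 in place of 8. The 8 were picked without replicate 1, which was left out on its profile, so the 0 is a description. On the deposited scaling, 46 genes were called (23 higher, 23 lower in CL6G52) and 93 had an adjusted p under 0.05. With signals raised to the floor, 47 were called, 36 of them lower. Leaving out 1 array at a time gave 61 to 78 calls, 8 to 19 higher and 51 to 66 lower, 404 to 520 genes by adjusted p alone and 7 to 11 particular genes. Replicate numbers did not pair the samples (correlations of same-numbered deviations from -0.0719 to 0.0157), and the replicate block gave 77 calls, 571 genes by adjusted p and 8 particular genes. Leaving out P19 replicates 4 and 5, an alternative chosen after seeing the data, gave 86 calls, 18 higher and 68 lower, 924 genes by adjusted p and 6 particular genes. The cause of these changes was not tested. Over named genes and alternatives, 263 values lost significance, 3 gained it (Tenm2), and 1470 did neither. Of these, Sox2, which never passed, had a difference of -0.00176 without P19CL6 replicate 5 in place of 0.09; the deposited scaling moved 51 named genes across the threshold. Particular genes were not recomputed with the mean of probe sets, the CL6G52 and P19CL6 arrays alone or without P19, nor the counts against other strains under any alternative but that on P19. Signals under the floor limit what can be said of the dim genes: 9 of the 59 lower calls were under it on all CL6G52 arrays and above it on all P19CL6 arrays.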
